A study of Sus scrofa with 23 samples.

Results

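The thick ascending limb genes are 10 genes that mark the thick ascending limb of the loop of Henle: SLC12A1, KCNJ1, CLDN10, CLDN16, CLDN19, CASR, UMOD, EGF, IRX1 and IRX3. They were taken by symbol, as known markers of this segment, from the 26687 genes to which the pig transcripts of the study were assigned. The study sequenced total RNA, depleted of ribosomal RNA, from the kidney cortex of 23 newborn pigs. Their genotype labels are CFTR-/- (CF, n = 11), CFTR+/- (HET, n = 6) and wild type (WT, n = 6). CFTR encodes the chloride channel that is mutated in cystic fibrosis, and the HET and WT libraries together are the non-CF group of the study's own comparison (n = 12). The CFTR-/- piglets of the study came from matings of CFTR+/- pigs, no pig received a treatment according to the labels, and neither sex nor litter is labelled. Each library came from 1 pig, so p-values measure the spread between pigs.

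The thick ascending limb reabsorbs salt without water and thereby dilutes the tubular fluid. The apical cotransporter NKCC2, encoded by SLC12A1, takes up sodium, potassium and chloride, and the potassium channel ROMK, encoded by KCNJ1, returns potassium to the lumen. The resulting lumen-positive voltage drives calcium, magnesium and sodium through pores formed between the cells by claudins, and the calcium-sensing receptor CASR restrains this transport. The segment secretes uromodulin (UMOD), the most abundant protein of normal urine, and is a source of epidermal growth factor (EGF). Iroquois homeobox factors such as IRX1 and IRX3 pattern the intermediate part of the developing nephron.

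Libraries held 32901281 to 52952273 estimated counts. A value of 0 would allow up to 3 counts, or 0.0567 to 0.0912 CPM (counts scaled to a common library total) by library, which covers counting error only. This limit uses unscaled totals. The other CPM used TMM-scaled library sizes, so it holds for them only roughly. CFTR RNA, the check of the labels, was 2.26 ± 0.79 CPM (SD, n = 6) in WT, 12.6 ± 2.76 (SD, n = 6) in HET and 19.9 ± 3.21 (SD, n = 11) in CF libraries. It was thus higher, not lower, with the labels of disrupted alleles, so groups are called by the labels of their libraries and every direction below is one between labels. When all genes were scaled to few dimensions, the second axis held 10.6% of the variance, and 13 libraries lay on it between -0.80 and 0.01 and the other 10 between 0.33 and 0.73. The former are those of pigs numbered 1 to 6 and 12 to 18 (6 CF, 3 HET and 4 WT, here the early-numbered pigs), and the latter those of pigs 7 to 11 and 19 to 23 (5 CF, 3 HET and 2 WT, the late-numbered pigs). The labels do not say what separates these numbers. CF against non-CF is therefore also given within each number block. The first axis held 17.2% of the variance and parted 10 libraries with at most 0.0961 CPM of the Y-linked gene EIF1AY from 13 libraries with at least 15.1 CPM. Both sides held all 3 labels, but among late-numbered pigs both WT libraries lay on the low EIF1AY side and all 3 HET libraries on the high side, so HET against WT and this split cannot be told apart there.

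Sequences from the genome Sscrofa11.1 show the alternative exons on which the transcript results for SLC12A1 and CLDN10 rest. SLC12A1 (gene 100154291) lies on the minus strand at chr1:123481892-123571655, and its 2 annotated transcripts have 27 exons each. Their coding sequences differ in 1 cassette of 96 bases, the fourth coding exon, which is either the upstream copy (chr1:123551760-123551855) or the downstream copy (chr1:123551147-123551242), 517 bases apart. The transcripts also differ outside the coding sequence, with total lengths of 4215 and 4305 bases. In mammals such alternative cassettes change the ion affinity of NKCC2 and are used to different extents along the limb. Both copies are given 5′ to 3′ on the strand of the gene, with capitals for the 41 bases that differ between them (57.3% identity).
SLC12A1 upstream cassette: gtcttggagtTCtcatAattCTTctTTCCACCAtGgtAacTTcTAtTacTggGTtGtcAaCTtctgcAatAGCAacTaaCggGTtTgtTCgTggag
SLC12A1 downstream cassette: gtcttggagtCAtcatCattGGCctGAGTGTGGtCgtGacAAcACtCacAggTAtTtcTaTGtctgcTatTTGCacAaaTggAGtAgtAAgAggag

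CLDN10 (gene 100153752) lies on the plus strand at chr11:65027706-65145002 and is transcribed from alternative first exons whose starts are 93921 bases apart. The upstream first exon has 214 coding bases (chr11:65027960-65028173), and the downstream first exon has 220 (chr11:65121642-65121861). In mammals, claudin-10 made from the downstream first exon (claudin-10b) forms the sodium pore of the thick ascending limb, whereas that from the upstream first exon (claudin-10a) forms an anion pore of the proximal tubule. The coding parts of both are shown because they tell which start the counts of this gene came from. Capitals mark the last 57 bases of the upstream exon, which 1 of its 2 transcripts lacks.
CLDN10 upstream first exon: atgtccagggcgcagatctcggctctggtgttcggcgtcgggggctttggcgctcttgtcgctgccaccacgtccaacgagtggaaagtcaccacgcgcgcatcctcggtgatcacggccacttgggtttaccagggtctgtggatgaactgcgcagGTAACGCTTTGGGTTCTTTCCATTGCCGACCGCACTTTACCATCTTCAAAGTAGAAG
CLDN10 downstream first exon: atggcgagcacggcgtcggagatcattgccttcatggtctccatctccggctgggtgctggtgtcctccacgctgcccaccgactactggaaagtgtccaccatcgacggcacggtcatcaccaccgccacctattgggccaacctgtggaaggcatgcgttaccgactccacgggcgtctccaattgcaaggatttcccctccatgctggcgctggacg

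All 10 genes had counts in every library, from 82 (IRX3) upwards. TPM, transcript levels scaled by length and library, allow genes to be compared with each other. Over all 23 libraries, UMOD had 189 ± 55.3 TPM and SLC12A1 171 ± 31.1 (SD, n = 23), above 98.9% and 98.7% of all genes by mean TPM. UMOD exceeded SLC12A1 in 12 of 23 libraries, so these 2 did not have a fixed order. CLDN10 (73.6 ± 19.3 TPM) and KCNJ1 (67.9 ± 11.3) followed, with CLDN10 higher in 14 of 23 libraries. CLDN19 (42.6 ± 11.9 TPM) was below KCNJ1 in 22 of 23 libraries and above CLDN16 (18.9 ± 3.16 TPM) in all 23. EGF (10.9 ± 2.91 TPM) and CASR (10.5 ± 1.86) lay close together, and EGF was higher in 10 of 23 libraries. IRX1 (4.64 ± 0.55 TPM) and IRX3 (1.35 ± 0.35) came last in every library.

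By their means, the order of the top pair differed between labels, without a test. The mean TPM of SLC12A1 exceeded that of UMOD in WT libraries, with 202 ± 19.9 for SLC12A1 and 154 ± 43.9 for UMOD (SD, n = 6). In HET libraries UMOD had 191 ± 50.3 TPM and SLC12A1 174 ± 33.2 (SD, n = 6). In CF libraries UMOD was the higher of the pair, with 207 ± 58.4 TPM against 152 ± 20.2 TPM for SLC12A1 (SD, n = 11). UMOD was also the most variable of the 10 genes between pigs, with a 4.30-fold range of CPM from the lowest to the highest library, against 1.72-fold for SLC12A1 and 1.67-fold for KCNJ1.

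**Figure D1:**
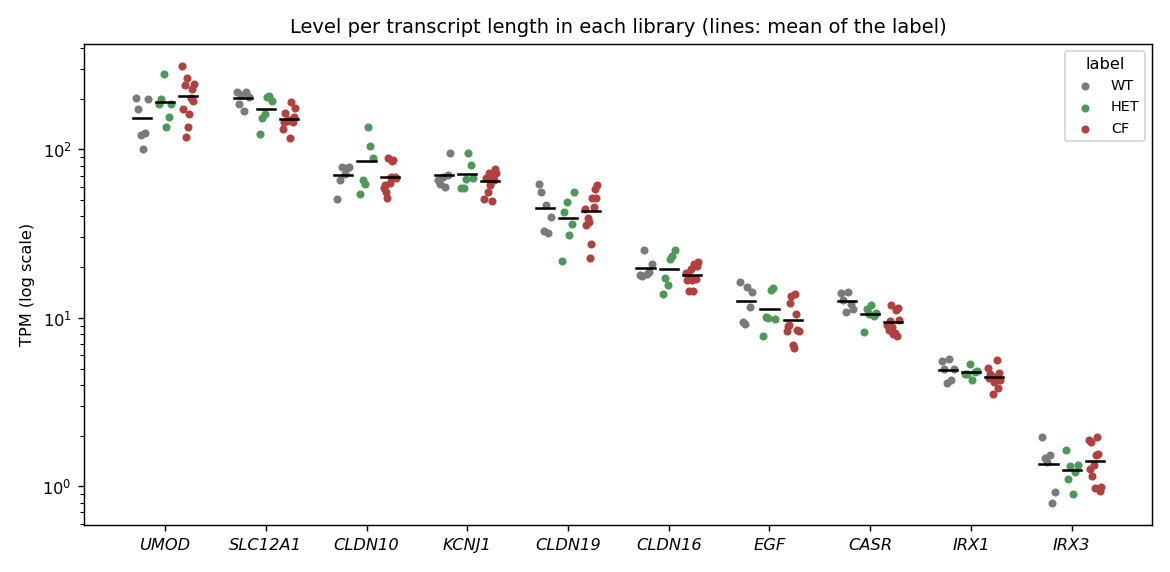
TPM (log axis) of the 10 genes in each library, in the order of their mean, with grey points for WT (n = 6), green for HET (n = 6) and red for CF (n = 11) and a line at the mean of each label. UMOD and SLC12A1 lie at the top with overlapping ranges, and IRX3 lies lowest, at 1.35 TPM on average.

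All 10 genes passed the expression filter and were tested together with all other genes by the quasi-likelihood method of edgeR, with p adjusted after Benjamini and Hochberg over all genes tested. None had an adjusted p under 0.05 for CF against non-CF (0 of 10, where 73 of all 20921 genes did, or 0.349%). An unadjusted p under 0.05 was found for 2 of 10, SLC12A1 and CASR, against 13.7% of all genes. In these libraries 7 of the 10 were lower and 3 were higher, with a median log2 fold change of -0.10 against -0.00052 for all genes tested. For CF against WT the count was also 0 of 10 (0.336% of all genes), with 3 at an unadjusted p under 0.05 (14% of all genes). HET against WT gave 0 of 10 (0.00467% of all genes), with 1 at an unadjusted p under 0.05 (8.0%). CF against HET gave 0 of 10 (0.0% of all genes), with 2 at an unadjusted p under 0.05 (9.83%). In bulk cortex, fewer cells of the segment and less RNA per cell cannot be told apart.

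**Figure D2:**
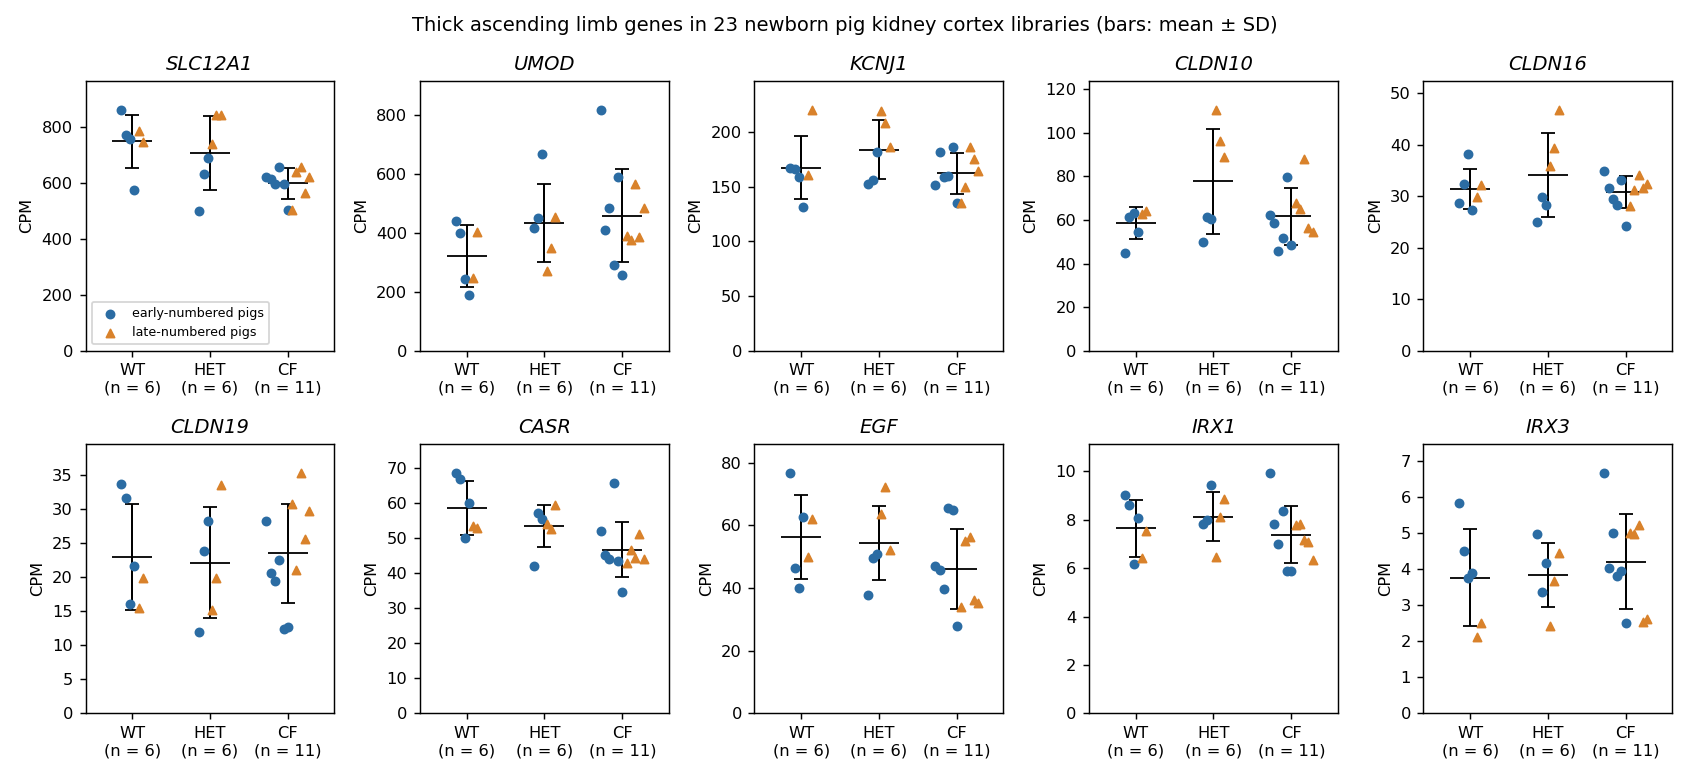
CPM of each gene in each library by genotype label, with circles for early-numbered and triangles for late-numbered pigs and bars for mean ± SD. For SLC12A1 the 11 CF libraries lie between 504 and 659 CPM, below most WT and HET libraries, while the labels overlap widely for the claudins, IRX1 and IRX3.

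SLC12A1 was the gene with the smallest p. CPM compare 1 gene between libraries and not genes with each other. In WT libraries SLC12A1 ranged from 576 to 862 CPM with a median of 765, in HET libraries from 501 to 845 with a median of 714, and in CF libraries from 504 to 659 with a median of 616. All 11 CF libraries were below the non-CF median of 753 CPM, but WT pig 18 and HET pig 14 fell within the CF range and HET pig 13 just below it, at 501. The log2 fold change of CF against non-CF was -0.28 (SE 0.081, adjusted edgeR p = 0.0966, permutation p = 0.00352, two-sided). Against WT alone it was -0.32 (SE 0.098, adjusted edgeR p = 0.115), and against HET alone -0.24 (SE 0.098, adjusted edgeR p = 0.416). HET and WT differed by -0.08 (95% confidence interval -0.31 to 0.15). These last values differed between the blocks. CF against HET was -0.03 in early-numbered pigs, where HET libraries averaged 608 CPM and CF libraries 599, and -0.43 in late-numbered pigs (adjusted edgeR p = 0.05004, where 2.42% of all genes were called). HET against WT was -0.29 in early-numbered and 0.09 in late-numbered pigs. The differences between blocks in these contrasts were not tested.

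The values of SLC12A1 in both number blocks were on the same side. Among the early-numbered pigs the log2 fold change of CF against non-CF was -0.19 (SE 0.118), and the ranges overlapped. Among the late-numbered pigs it was -0.40 (SE 0.089, adjusted edgeR p = 0.0346), where the 5 CF libraries reached at most 659 CPM and the 5 non-CF libraries started at 738. Such a gap with CF lower was found in 2.39% of all genes tested in that block, and in 2 of the 10 genes described here, SLC12A1 and CASR. The difference between the blocks was -0.21 (SE 0.155, adjusted edgeR p = 0.678). The call for CF against non-CF passed 0.05 with DESeq2 (adjusted p = 0.0303, with 2.46% of all genes called, and for CF against WT 0 of 10 with 2.68%) and without the library of HET pig 13 (adjusted edgeR p = 0.0346, with 0.72% called). Of the exonic bases of SLC12A1, 421 of 4401 are shared with 2 overlapping genes, CTXN2 on the same strand and an uncharacterized locus on the other.

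The transcript with the downstream cassette of SLC12A1, shown above, took 28.1% ± 2.75 of the gene's estimated counts in WT (SD, n = 6), 23.7% ± 3.16 in HET (SD, n = 6) and 22.5% ± 3.06 in CF libraries (SD, n = 11). Its share ranged from 24.8% to 31.6% in WT, from 18.8% to 27.3% in HET and from 18.4% to 27.2% in CF libraries, so the labels overlapped. Among early-numbered pigs it ranged from 26.1% to 31.6% in WT (n = 4), from 18.8% to 23.3% in HET (n = 3) and from 18.9% to 24.9% in CF libraries (n = 6). How often other transcripts part in this way at such small n was not counted. Among late-numbered pigs the means were 25.6% in WT (n = 2), 25.9% in HET (n = 3) and 24.1% in CF libraries (n = 5), with overlapping ranges. In CPM, the downstream-cassette transcript had 211 ± 37.4 in WT, 171 ± 48.8 in HET and 135 ± 24.5 in CF libraries. The upstream-cassette transcript had 539 ± 66.0, 538 ± 85.5 and 463 ± 40.7 CPM in the same order. The division of reads could use the non-coding difference as well as the cassettes. These shares are described without a test, because they are kallisto's division of reads between near-identical transcripts and the values used here carry no error for it.

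KCNJ1 (gene 100517668, chr9:55779020-55812761, minus strand), the potassium channel that works beside NKCC2, varied little. It ranged from 132 to 220 CPM in WT (median 164), from 152 to 220 in HET (median 184) and from 135 to 187 in CF libraries (median 160). The labels overlapped, and the log2 fold change of CF against non-CF was -0.11 (95% confidence interval -0.28 to 0.05, adjusted edgeR p = 0.588). Within the blocks it was 0.03 (SE 0.092) in early-numbered and -0.29 (SE 0.109) in late-numbered pigs. The difference between the blocks had an unadjusted p of 0.0315 by edgeR but an adjusted p of 0.429. The late-numbered HET libraries held 186 to 220 CPM (n = 3), above the early-numbered ones at 152 to 182 (n = 3). Of its 5 annotated transcripts, the 1 that encodes 384 instead of 372 amino acids took 8.52% ± 0.97 of the counts in WT, 7.97% ± 1.48 in HET and 6.77% ± 2.07 in CF libraries. Its share ranged from 7.03% to 9.61% in WT, from 6.13% to 10.6% in HET and from 3.24% to 9.72% in CF libraries. The labels thus overlapped, and these kallisto shares were not tested.

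Most counts of CLDN10 did not come from the start that the thick ascending limb is known to use. Over all 23 libraries the transcript from the downstream first exon took 28.3% ± 4.45 of the estimated counts, with a range from 19.7% to 39.2%. The transcript with the whole upstream first exon took 63.1% ± 4.24, and the one that lacks its last 57 bases took 8.57% ± 2.62. The downstream-start share was 29.3% ± 5.42 in WT, 26.4% ± 5.03 in HET and 28.8% ± 3.62 in CF libraries, with ranges that overlapped. The gene sum of CLDN10 is thus mainly a measure of the upstream start.

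**Figure D3:**
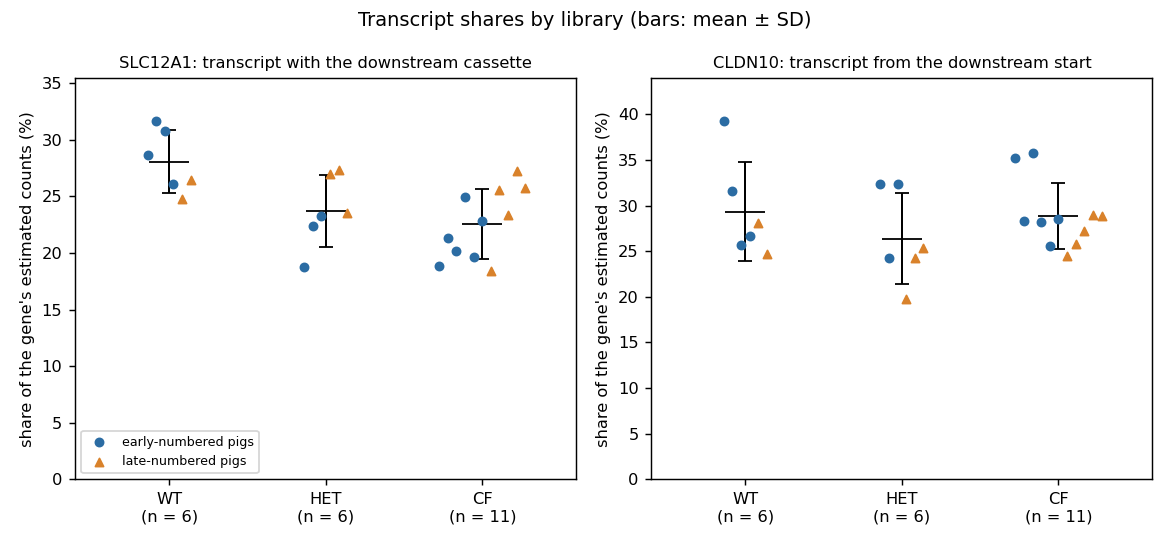
Share of the gene's estimated counts (%) taken by the SLC12A1 transcript with the downstream cassette (left) and by the CLDN10 transcript from the downstream start (right) in each library by label, with circles for early-numbered and triangles for late-numbered pigs and bars for mean ± SD. WT libraries average 28.1% for SLC12A1, against 23.7% in HET and 22.5% in CF libraries, and about 28.3% for CLDN10 over all libraries.

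The gene sum of CLDN10 ranged from 45.0 to 64.2 CPM in WT (median 62.0), from 49.7 to 110 in HET (median 74.96) and from 45.9 to 88.1 in CF libraries (median 58.6). The highest values were those of the 3 late-numbered HET libraries, at 88.7 to 110 CPM. HET libraries exceeded WT by a log2 fold change of 0.41 (SE 0.174, adjusted edgeR p = 0.597, exact permutation p = 0.108), the smallest unadjusted p of the 10 genes in that comparison (0.0265). It was 0.02 in early-numbered and 0.64 in late-numbered pigs, where HET and WT also differed in EIF1AY, and 0.28 in all pigs with EIF1AY as a term (SE 0.185, adjusted edgeR p = 0.831). CF libraries were lower than HET by 0.33 on the log2 scale (log2 fold change -0.33, SE 0.151, adjusted edgeR p = 0.469) and differed from non-CF by -0.14 (SE 0.136, adjusted edgeR p = 0.702). CF against HET was 0.01 in early-numbered and -0.57 in late-numbered pigs, and CF against non-CF 0.04 and -0.34. With 1 library left out, CF against HET ranged from -0.44 to -0.22 and CF against non-CF from -0.21 to -0.06. The downstream-start transcript alone had 16.9 ± 1.68 CPM in WT, 19.7 ± 3.51 in HET and 17.6 ± 3.18 in CF libraries, a smaller spread than that of the upstream one with the whole exon (36.5 ± 6.67, 51.7 ± 18.8 and 38.7 ± 9.38 CPM).

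CLDN16 (gene 100302019, chr13:127808599-127831081, plus strand) and CLDN19 (gene 100294682, chr6:168695246-168699683, plus strand) encode partners in the tight junction that let magnesium and calcium pass. CLDN16 ranged from 27.4 to 38.2 CPM in WT, from 24.9 to 46.8 in HET and from 24.2 to 34.8 in CF libraries, with medians of 31.0, 32.9 and 31.5. Its log2 fold change of CF against non-CF was -0.09 (95% confidence interval -0.27 to 0.09, adjusted edgeR p = 0.721), and the labels overlapped. For CLDN16, HET against WT was -0.20 in early-numbered and 0.40 in late-numbered pigs, and CF against HET 0.13 and -0.37. These differences between blocks were not tested, and late-numbered HET and WT libraries also differed in EIF1AY. CLDN19 was spread more widely, from 15.4 to 33.6 CPM in WT, 11.96 to 33.5 in HET and 12.4 to 35.3 in CF libraries, with medians of 20.7, 21.9 and 22.4. Its log2 fold change of CF against non-CF was 0.06 (95% confidence interval -0.32 to 0.44, adjusted edgeR p = 0.941).

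The effect on CLDN19 had opposite signs in the number blocks. Among early-numbered pigs CF libraries averaged 19.3 ± 6.04 CPM (n = 6) and non-CF libraries 23.8 ± 7.97 (n = 7), a log2 fold change of -0.30 (SE 0.237). Among late-numbered pigs these were 28.4 ± 5.42 (n = 5) and 20.8 ± 7.48 CPM (n = 5), a log2 fold change of 0.46 (SE 0.205). The test of the difference between blocks gave 0.75 on the log2 scale (SE 0.349) with an unadjusted p of 0.0406 and an adjusted p of 0.46 by edgeR. For this test 4 of all 20921 genes had an adjusted p under 0.05 (0.0191%, with 0.00478% higher and 0.0143% lower), and none of the 10. An unadjusted p under 0.05 was found for 10.1% of all genes and for 2 of the 10, KCNJ1 and CLDN19. CLDN16 lay at 0.02 (SE 0.102) in early-numbered and -0.22 (SE 0.114) in late-numbered pigs.

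CASR (gene 100520980, chr13:138279785-138364934, minus strand), the receptor through which blood calcium reduces salt and calcium reabsorption, had the second smallest p. It ranged from 50.2 to 68.8 CPM in WT (median 56.9), from 42.0 to 59.6 in HET (median 54.9) and from 34.7 to 65.8 in CF libraries (median 44.4). Of the 11 CF libraries 10 lay below the non-CF median of 54.9 CPM, and the 1 above, of CF pig 4, held the highest value of its label at 65.8. The log2 fold change of CF against non-CF was -0.26 (SE 0.085, adjusted edgeR p = 0.142, permutation p = 0.00578, two-sided), and against WT it was -0.33 (SE 0.101, adjusted edgeR p = 0.125). Without the library of CF pig 4 these became -0.32 (adjusted edgeR p = 0.038, with 0.969% of all genes called) and -0.39 (adjusted edgeR p = 0.0318, with 0.832% called). Against non-CF the values within the blocks were -0.26 (SE 0.138) in early-numbered and -0.25 (SE 0.073) in late-numbered pigs, and the difference between blocks was 0.01 (SE 0.174). CF against WT was -0.38 in early-numbered and -0.20 in late-numbered pigs, and CF against HET -0.12 and -0.27, without a test of these differences between blocks.

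UMOD (gene 100511125, chr3:25473048-25492286, plus strand), whose product polymerizes in urine, was higher in CF libraries on average but spread too widely for a call. It ranged from 190 to 440 CPM in WT (median 323), from 270 to 665 in HET (median 433) and from 256 to 816 in CF libraries (median 409). CF libraries lay above the non-CF median in 6 of 11 cases and above the WT median in 9 of 11, and HET libraries lay above the WT median in 5 of 6. The log2 fold change was 0.52 for CF against WT (SE 0.224, adjusted edgeR p = 0.291, exact permutation p = 0.0524), 0.44 for HET against WT (SE 0.250, adjusted edgeR p = 0.683) and 0.08 for CF against HET (95% confidence interval -0.37 to 0.53). Against all non-CF libraries it was 0.28 (SE 0.187, adjusted edgeR p = 0.544), with 0.24 in early-numbered and 0.36 in late-numbered pigs. It was 0.16 without CF pig 1 and 0.38 without HET pig 15, the lowest and highest values with 1 library left out. HET against WT was 0.68 in early-numbered and 0.15 in late-numbered pigs. With 1 library left out it ranged from 0.28 to 0.56, and CF against WT from 0.40 to 0.64.

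EGF (gene 397083, chr8:112235607-112330062, minus strand), secreted into the urine by the distal nephron, went the other way on average. It ranged from 40.0 to 76.9 CPM in WT (median 56.0), from 37.8 to 72.2 in HET (median 51.6) and from 27.8 to 65.5 in CF libraries (median 45.6). The log2 fold change of CF against non-CF was -0.26 (95% confidence interval -0.55 to 0.03, adjusted edgeR p = 0.42). It was -0.10 (SE 0.200) in early-numbered and -0.46 (SE 0.158) in late-numbered pigs, and the labels overlapped.

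The transcription factor genes IRX1 (gene 110257264, chr16:77695704-77701089, minus strand) and IRX3 (gene 100518611, chr6:31044919-31049067, plus strand) were low and showed no call. IRX1 ranged from 6.15 to 9.04 CPM in WT, from 6.47 to 9.43 in HET and from 5.89 to 9.94 in CF libraries, and its log2 fold change of CF against non-CF was -0.09 (95% confidence interval -0.28 to 0.09). IRX3 ranged from 2.12 to 5.83 CPM in WT, from 2.43 to 4.98 in HET and from 2.51 to 6.68 in CF libraries, and its log2 fold change was 0.15 (95% confidence interval -0.21 to 0.51). Within early-numbered and late-numbered pigs, CF against non-CF was -0.12 and -0.04 for IRX1 and -0.0084 and 0.43 for IRX3. The lowest IRX3 values of the WT label were those of its 2 late-numbered libraries, at 2.12 and 2.50 CPM. Of the exonic bases of IRX3, 130 of 3438 are shared with an uncharacterized locus on the opposite strand.

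**Figure D4:**
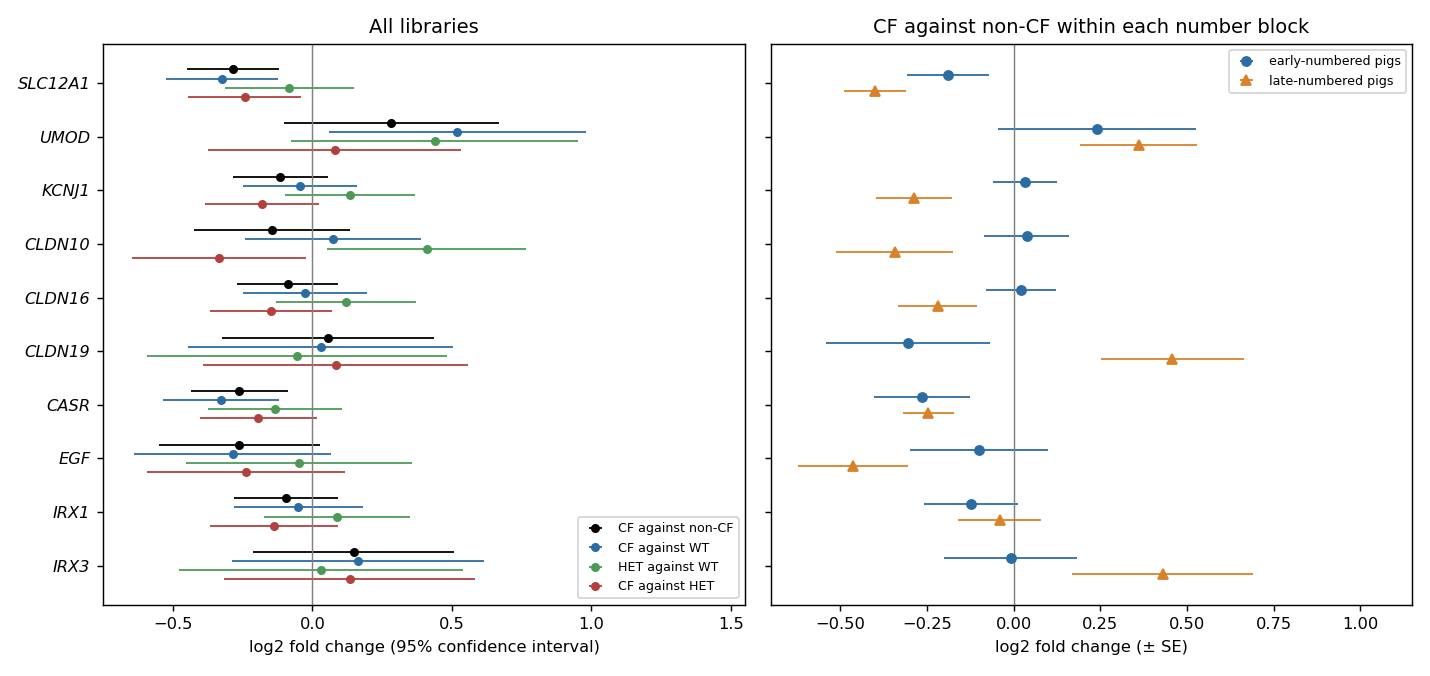
Log2 fold changes of the 10 genes: left, 4 comparisons of labels with 95% confidence intervals from edgeR; right, CF against non-CF within early-numbered (circles) and late-numbered pigs (triangles) with SE. The intervals of SLC12A1 and CASR for CF against non-CF lie below 0 before adjustment, and the estimates of CLDN19 lie on opposite sides of 0 in the number blocks.

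Among early-numbered pigs 6 were lower and 4 higher in CF than in non-CF libraries, with a median of -0.05 and 0 of 10 at an unadjusted p under 0.05 (9.31% of all genes). Among late-numbered pigs 7 were lower and 3 higher, with a median of -0.23, and SLC12A1, KCNJ1, CLDN19, CASR and EGF (5 of 10) had an unadjusted p under 0.05 by edgeR (17.4% of all genes). After adjustment 1 of 10 remained in the late-numbered pigs, SLC12A1 (2.27% of all genes), and 0 of 10 in the early-numbered ones, where no gene of 21038 was called by edgeR and 1958 had an unadjusted p under 0.05. Between the blocks themselves the mean log2 CPM differed most for CLDN10, which was higher by 0.38 in late-numbered pigs, and for IRX3, which was lower (-0.33).

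Of the pairs of these genes, 6 were chosen by role and compared by their log2 CPM within each block, and none of the 12 relations (6 pairs in 2 blocks) had an adjusted p under 0.05. Among these 6, IRX1 and IRX3 had the highest r in both blocks, with Pearson's r of 0.63 (permutation p = 0.0191, adjusted 0.117) and Spearman's rho of 0.53 (permutation p = 0.0666, adjusted 0.369) in early-numbered pigs (n = 13). In late-numbered pigs (n = 10) these were 0.68 (permutation p = 0.0364, adjusted 0.117) and 0.55 (permutation p = 0.105, adjusted 0.369). Without the 2 libraries farthest from the median of IRX1, r was 0.48 and 0.66. SLC12A1 and KCNJ1 had r of 0.45 (permutation p = 0.124, adjusted 0.298) and rho of 0.47 in early-numbered and r of 0.66 (permutation p = 0.039, adjusted 0.117) and rho of 0.53 in late-numbered pigs, and r without the 2 farthest libraries was 0.46 and 0.48. CASR and CLDN16 had r of 0.22 (permutation p = 0.468, adjusted 0.669) and rho of 0.13 in early-numbered and r of 0.65 (permutation p = 0.0383, adjusted 0.117) and rho of 0.49 in late-numbered pigs, and r without the 2 farthest libraries was -0.02 and 0.56. CLDN16 and CLDN19 had r of 0.22 and 0.18, and UMOD and EGF r of 0.12 and -0.24, with permutation p from 0.464 to 0.686. Without the 2 farthest libraries these became 0.26 and -0.14 for CLDN16 and CLDN19, and 0.42 and -0.52 for UMOD and EGF. SLC12A1 and UMOD had r of 0.11 (permutation p = 0.72) and rho of 0.08 (permutation p = 0.807) in early-numbered and r of -0.28 (permutation p = 0.435) and rho of -0.21 (permutation p = 0.561) in late-numbered pigs. Without the 2 libraries farthest from the median of SLC12A1, r was 0.12 and -0.42.

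Likeness over all 20920 other genes was ranked by the lower of the 2 within-block values of Pearson's r of log2 CPM (13 and 10 libraries), as a description. The genes most like SLC12A1 were GRIN3A (0.82 and 0.83), CHP1 (0.79 and 0.81), BMP3 (0.77 and 0.82), CASR (0.75 and 0.78) and LOC110256270 (0.74 and 0.76). CASR was thus at rank 4 of all genes. Of the other 8, CLDN16 ranked 200, EGF 235, KCNJ1 518, IRX1 2427, CLDN10 3969, IRX3 10485, UMOD 11963 and CLDN19 14905. CLDN19 had 0.72 with SLC12A1 in early-numbered and -0.40 in late-numbered pigs. The genes most like UMOD were GNG7 (0.84 and 0.90), MVB12B (0.81 and 0.83), GAS6 (0.80 and 0.81), THSD1 (0.78 and 0.88) and DENND5A (0.77 and 0.76), none of them among the 10. IRX3 ranked 423 for UMOD, the best of the other 9 by the lower r, with 0.58 and 0.56. CLDN19 had 0.28 with UMOD in early-numbered and 0.90 in late-numbered pigs, and KCNJ1 0.59 and -0.07. Libraries of all 3 labels enter these values and share depth, so a shift common to a label also feeds them, and they carry no p. The 5 genes most like SLC12A1 had log2 fold changes of CF against non-CF from -1.28 to -0.26. Because SLC12A1 was itself lower in CF libraries, the ranking favours genes of that direction. Their shared sign is therefore not a separate result.

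Other genes of the segment were listed by role. Of 14 further transport genes tested, 9 were lower and 5 higher in CF than in non-CF libraries, with a median log2 fold change of -0.07 and 0 under an adjusted p of 0.05. TMEM207 had the smallest p (log2 fold change -0.37, SE 0.113, adjusted edgeR p = 0.126), with -0.06 in early-numbered and -0.76 in late-numbered pigs. Of 16 regulators, 9 were lower and 7 higher with a median of -0.05, and none passed. WNK1, a kinase upstream of the salt cotransporters, had a log2 fold change of 0.21 (SE 0.070, adjusted edgeR p = 0.167) and the parathyroid hormone receptor PTH1R 0.19 (SE 0.080, adjusted edgeR p = 0.263). For HET against WT the smallest p values in these lists were those of FXYD2, a subunit of the sodium pump that the distal convoluted tubule also expresses (0.56, SE 0.190, adjusted edgeR p = 0.541), the kinase WNK4 (-0.43, SE 0.178, adjusted p = 0.586) and the transcription factor PAX2 (-0.36, SE 0.156, adjusted p = 0.609).

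Markers of neighbouring segments were examined beside the 10 genes. The macula densa, a plaque of cells at the end of the thick ascending limb, is marked by 4 listed genes, all lower in CF than in non-CF libraries (0 of 4 under an adjusted p of 0.05, 2 of 4 under an unadjusted one), with a median log2 fold change of -0.40. Their summed level was 199 to 288 CPM in WT, 190 to 254 in HET and 156 to 238 in CF libraries. PAPPA2, named after its values were seen, held 31.5 ± 14.1 CPM in the CF (SD, n = 11) and 60.6 ± 19.8 in the non-CF libraries (SD, n = 12), which did not pass (log2 ratio -0.94, SE 0.220, adjusted edgeR p = 0.0531). Of 8 genes of the distal convoluted tubule, the next segment, 6 were lower and 0 passed, with a median log2 fold change of -0.28 and 5 of 8 at an unadjusted p under 0.05 by edgeR (13.7% of all genes). Their summed level was 1170 to 1544 CPM in WT, 842 to 2105 in HET and 830 to 1313 in CF libraries. Of 12 genes of the proximal tubule 9 were higher, with a median of 0.15, 2 of 12 at an unadjusted p under 0.05 and sums of 7905 to 11541 CPM in WT, 9205 to 13274 in HET and 9108 to 15603 in CF libraries. The water channel AQP1 was the only listed gene under an adjusted p of 0.05 in any of the 4 comparisons, for CF against WT (log2 fold change 0.93, SE 0.187, adjusted edgeR p = 0.0303), and that call was lost without the library of CF pig 7 or of WT pig 12, 16, 17, 18 or 22. No marker of these 3 lists was at 0 on average, and the part of these segments in the values of SLC12A1, CASR or CLDN10 was not tested.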

How the data were processed

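Total RNA of kidney cortex from 23 newborn pigs was measured by strand-marked RNA sequencing after ribosomal RNA depletion. The authors assigned reads to RefSeq transcripts of Sscrofa11.1 with kallisto and deposited estimated counts and TPM per transcript; the strand setting is not given in the sources used here. Because kallisto divides reads between similar transcripts, 64.0% of the transcript values are not whole. Counts were summed per gene symbol and rounded (77689 transcripts, 26687 genes, totals of 32901281 to 52952273). CPM used TMM-scaled library sizes. Genes were filtered with filterByExpr and fitted in edgeR 4.0.16 (R 4.3.3), CF against non-CF in a fit of both groups and the other contrasts in a fit of the 3 labels, with Benjamini-Hochberg adjustment over all genes tested and a threshold of 0.05. The study's own test, the Mann-Whitney test, as well as DESeq2 1.42.0, limma 3.58.1, other scalings and filters, terms for number block or the Y-linked EIF1AY, and each library left out were alternatives. Permutation tests of single genes were exact, or used 100000 resamples for 11 against 12 and for pairs of genes. On simulated counts each fit was tested before use. No library pair within a label agreed within sampling noise (85 pairs, lowest chi-square per degree of freedom 26.6). Exons and promoters were read from the Sscrofa11.1 genome and its RefSeq annotation.

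The members and lists were chosen with earlier results of these data known. Named are the 10 genes, CFTR, the 3 other thick ascending limb genes with the smallest p for CF against non-CF and for HET against WT, any listed gene under the threshold, and the 5 genes most like SLC12A1 and UMOD. PAPPA2 is named outside this rule, after its values were seen.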

Additional observations from a re-analysis of the deposited data

How the results depend on the processing

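The count of the 10 genes under an adjusted p of 0.05 for CF against non-CF was 0 by edgeR and became 1 with DESeq2 (SLC12A1, adjusted p = 0.0303) and in the late-numbered pigs alone (SLC12A1, adjusted edgeR p = 0.0346), and ranged from 0 to 1 when each library was left out, with SLC12A1 called without HET pig 13 and CASR without CF pig 4. For CF against WT it ranged from 0 to 1 over the libraries left out, with CASR called without CF pig 4. By the Mann-Whitney test SLC12A1 had an adjusted p of 0.159 and CASR of 0.172, and 0 of the 10 were called. The count of listed genes of the segment and its neighbours was 0 of 97 for CF against non-CF and became 5 of 97 with DESeq2 (2.46% of all genes called), 1 with upper-quartile scaling (0.483%), 1 of 95 with at least 10 counts in every library (0.48%), 2 with the number block as a term (0.707%) and 14 of 97 in late-numbered pigs (2.27%), with 0 to 4 over the libraries left out. For CF against WT it was 1 of 98 and became 7 with DESeq2 (2.68% of all genes), 2 with upper-quartile scaling (0.649%), 2 of 95 with at least 10 counts (0.595%), 3 with the block term (0.802%) and 2 in early-numbered pigs (0.0324%), with 0 to 3 over the libraries left out. For CF against HET it was 0 of 98 and became 9 in late-numbered pigs (2.42% of all genes). The share of all genes called also moved with the library left out. For CF against non-CF it was 0.349% with all libraries, 0.72% without HET pig 13 and 0.969% without CF pig 4. For CF against WT it was 0.336% with all libraries and 0.832% without CF pig 4. The counts with 1 library left out are thus not a result about the listed genes alone. The cause of these changes was not tested.

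Signs of some changes turned, most of them small. Larger ones were CLDN10 (-0.33) and EGF (-0.24) for CF against HET. For CF against non-CF in early-numbered pigs, KCNJ1 was at 0.034, CLDN10 at 0.037, CLDN16 at 0.022, CLDN19 at -0.30 and IRX3 at -0.0084 on the log2 scale. For CF against WT, CLDN19 was at -0.017 with upper-quartile scaling, -0.025 with the block term, -0.045 with an EIF1AY term and -0.42 in early-numbered pigs, CLDN10 at -0.00060 with the EIF1AY term, KCNJ1 at 0.053 and IRX3 at -0.061 in early-numbered pigs, and CLDN16 at 0.038 and IRX1 at 0.067 in late-numbered pigs. For HET against WT, IRX3 was at -0.0021 with upper-quartile scaling, -0.10 with the EIF1AY term and -0.11 in early-numbered pigs, CLDN16 at -0.20 in early-numbered pigs, and SLC12A1 at 0.088, CLDN19 at 0.39, CASR at 0.070 and EGF at 0.17 in late-numbered pigs. For CF against HET in early-numbered pigs, UMOD was at -0.11, CLDN10 at 0.014, CLDN16 at 0.13, CLDN19 at -0.15 and EGF at 0.067. With each library left out in turn, these values ran across 0: for CF against non-CF CLDN19 from -0.019 to 0.12, for CF against WT KCNJ1 from -0.11 to 0.045, CLDN16 from -0.064 to 0.036, CLDN19 from -0.067 to 0.17 and IRX1 from -0.11 to 0.0087, for HET against WT CLDN19 from -0.21 to 0.090, EGF from -0.14 to 0.068 and IRX3 from -0.085 to 0.20, and for CF against HET UMOD from -0.040 to 0.24 and CLDN19 from -0.043 to 0.24. SLC12A1 and CASR stayed below 0 for CF against non-CF and for CF against WT in all settings run. No paired analysis was possible because litter is not labelled. All p-values therefore treat the pigs as independent, although some may be littermates. The lowest gene, IRX3, rests on 82 counts in its lowest library, and the pig numbers, whose meaning the labels do not give, are shared unevenly between WT and the other labels.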

Other observations

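Lists of other cortex cells, counted for CF against non-CF, had no gene under an adjusted p of 0.05 by edgeR. Of 10 collecting duct genes 6 were higher, of 6 podocyte genes 4, of 7 nephron progenitor and early nephron genes 6, of 6 endothelial genes 4, of 6 stromal genes 4, of 5 immune genes 1 and of 5 erythroid genes 2. Their median log2 fold changes were 0.02, 0.09, 0.07, 0.02, 0.01, -0.06 and -0.12 in the same order, against -0.00052 for all genes.

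From 250 bases before to 50 after each annotated gene start, the letters GTTAAT (core of the HNF1 motif) were found on either strand for UMOD and CLDN10 and in 6.46% of 19559 promoters of protein-coding genes. AAGGTCA (the estrogen-related receptor motif) was found for SLC12A1 and in 3.78% of all promoters, and TATAAA (the TATA box) for CASR and in 10.9%. For CLDN10 this window lay at the upstream start, and the downstream start was not searched. A match is a description of these letters.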
